A study of Mus musculus with 6 samples.

Results

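The Krüppel-like factors (KLFs) described here are 10 genes of the mouse, Klf2, Klf3, Klf4, Klf6, Klf7, Klf9, Klf10, Klf11, Klf12 and Klf13, followed in CD31-positive cells of the liver. They were taken by symbol from a table of 35275 gene identifiers, which holds 17 Klf genes in all, and all 10 passed a filter on low counts. The genes were chosen by their levels and fold changes in the comparison below, so these values are given as a description, without a test. CD31 is an adhesion molecule of endothelium also found on platelets and many leukocytes. The cells came from mice aged 1 year that carried p16-Cre and Rosa26-mTmG, in which a Cre recombinase under control of the p16 gene turns on GFP for good, in the cell itself and in its descendants. Cells bound by CD31 beads were sorted into a p16/EGFP-positive and a p16/EGFP-negative fraction, with 3 libraries of poly-A RNA from each. Both fractions carry both alleles, and GFP marks use of the p16 promoter at any time, not at the time of sorting. The protocol also describes growth of the bead-bound cells in endothelial medium, but the sources used here do not say whether RNA was taken before or after such growth, nor how many animals stand behind each library.

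KLFs bind GC-rich and CACCC-containing DNA through zinc fingers at the carboxyl terminus, and their differing amino termini recruit activators or repressors. In endothelium, Klf2 and Klf4 are switched on by blood flow through the kinase ERK5 and MEF2 factors and hold the vessel wall in an anti-inflammatory and antithrombotic state. In resting T and B lymphocytes Klf2 keeps cells quiescent and drives genes of homing and egress. Klf6 is an early-response factor of injured tissue, Klf3 and Klf12 are repressors that bind CtBP, and Klf9, Klf10, Klf11 and Klf13 repress through the Sin3 complex.

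The libraries held 16766556 to 22627555 counts, with 12122 genes tested. Levels are given as CPM, counts scaled to the size of each library after adjustment by the trimmed mean of M-values. Of the genes tested, 2157 (17.8%) passed an adjusted p of 0.05 in edgeR's quasi-likelihood test, 927 higher (7.65%) and 1230 lower (10.1%) in GFP-positive libraries. Without GFP-negative library 1, 2 or 3 the number was 994, 1027 or 1045. Cdkn2a, the gene that encodes p16, held 15, 27 and 7 counts in the GFP-positive libraries and 0 in each GFP-negative library. Summed CPM of 9 B cell markers lay between 12950 and 14210 in GFP-negative and between 79.4 and 132 in GFP-positive libraries. Those of 8 Kupffer cell markers lay between 814.6 and 1039 in GFP-negative and between 12890 and 13930 in GFP-positive libraries. In such bulk samples, fewer cells of a type and less RNA per cell cannot be told apart. The labels name no animal, so a p-value reflects variation among libraries that may be purely technical.

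Sequences around the start sites are shown for Klf2, Klf6 and Klf11, which had the lowest fold changes of the 10, and for Klf4, the partner of Klf2 in endothelium. Each window runs from 250 bases before to 50 bases after the start in RefSeq (GRCm38.p6) and is written in the direction of transcription. The table of windows matched 9 of the 10 genes, all except Klf10. Capitals mark matches on either strand to the MEF2 motif, to the GC box GGGCGG and to the E-box CACGTG.
Klf2 (chr8:72318812-72319111, plus strand): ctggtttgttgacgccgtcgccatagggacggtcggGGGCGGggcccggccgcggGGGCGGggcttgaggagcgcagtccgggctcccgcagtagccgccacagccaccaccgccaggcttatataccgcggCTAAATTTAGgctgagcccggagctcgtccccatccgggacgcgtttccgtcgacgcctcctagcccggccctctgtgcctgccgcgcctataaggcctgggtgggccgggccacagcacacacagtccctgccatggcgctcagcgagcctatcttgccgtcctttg
Klf6 (chr13:5861239-5861538, plus strand): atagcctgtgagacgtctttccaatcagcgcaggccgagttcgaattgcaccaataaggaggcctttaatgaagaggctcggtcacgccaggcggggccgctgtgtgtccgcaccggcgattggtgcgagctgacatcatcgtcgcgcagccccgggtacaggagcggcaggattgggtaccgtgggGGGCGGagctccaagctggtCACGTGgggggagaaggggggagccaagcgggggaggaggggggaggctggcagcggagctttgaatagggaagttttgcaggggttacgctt
Klf11 (chr12:24651121-24651420, plus strand): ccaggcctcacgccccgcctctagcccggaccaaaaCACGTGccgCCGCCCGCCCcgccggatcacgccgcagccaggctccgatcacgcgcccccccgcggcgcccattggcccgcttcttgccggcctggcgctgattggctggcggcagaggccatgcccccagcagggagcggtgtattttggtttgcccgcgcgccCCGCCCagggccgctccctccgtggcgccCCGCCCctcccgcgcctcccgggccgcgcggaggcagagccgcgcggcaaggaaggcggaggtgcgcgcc
Klf4 (chr4:55532426-55532725, minus strand): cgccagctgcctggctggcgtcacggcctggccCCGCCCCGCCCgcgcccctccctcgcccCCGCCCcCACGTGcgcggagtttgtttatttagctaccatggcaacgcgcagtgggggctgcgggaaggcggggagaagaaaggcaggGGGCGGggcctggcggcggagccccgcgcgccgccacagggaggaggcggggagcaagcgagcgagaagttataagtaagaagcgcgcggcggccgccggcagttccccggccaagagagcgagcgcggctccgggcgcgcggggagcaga

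The window of Klf2 held the MEF2 match CTAAATTTAG at position −118 from the start, and no other of the 9 windows held one, against 3.16% of 32544 windows of the same length. The E-box CACGTG was found in 3 of the 9 windows, those of Klf4, Klf6 and Klf11, against 7.17% of all windows. GGGCGG was found in 7 of 9 (35.9% of all), CACCC in 6 (57.7%) and TGACG, the core of the cyclic AMP element, in 6 (20.9%). The other motifs searched were TGACGTCA, which contains TGACG, with 0 of 9 (1.8% of all), CCAAT with 4 (37.4%), TATAAA with 1 (13.6%) and the serum-response CArG box with 0 (1.64%). Both strands were read throughout. The share of G and C ranged from 45.7% in Klf12 to 77.7% in Klf11 over the 9 windows, with 74.3% in Klf4, 69.3% in Klf2 and 63.0% in Klf6, against a median of 53.0% over all windows. The Klf12 window (chr14:100149747-100150046, minus strand) lies inside the gene as annotated in GENCODE M21, whose upstream end is at 100284679. It thus stands for an internal start, and it is counted among the 9 windows. The Klf7 window (chr1:64121340-64121639, minus strand) likewise lies inside its annotated gene, whose upstream end is at 64122282, and is counted too. A match describes the letters of the window only.

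Klf2 and Klf6 were the abundant KLFs of the GFP-negative fraction and stood far lower in the GFP-positive one. Of the 10 genes, 7 had a log2 fold change below 0 and 3 above 0, with a median of −1.30 against −0.09 over all genes tested. The groups did not overlap for 6 genes, Klf2, Klf3, Klf4, Klf6, Klf11 and Klf13, all lower in GFP-positive libraries, a pattern seen in 23.9% of all genes tested (42.4% in either direction). Nothing is read from these counts, because the list was made with this comparison known. Among the 3 GFP-positive libraries, library 2 gave the lowest value of its group for 7 of the 10 genes and library 3 the highest for 6.

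**Figure D1:**
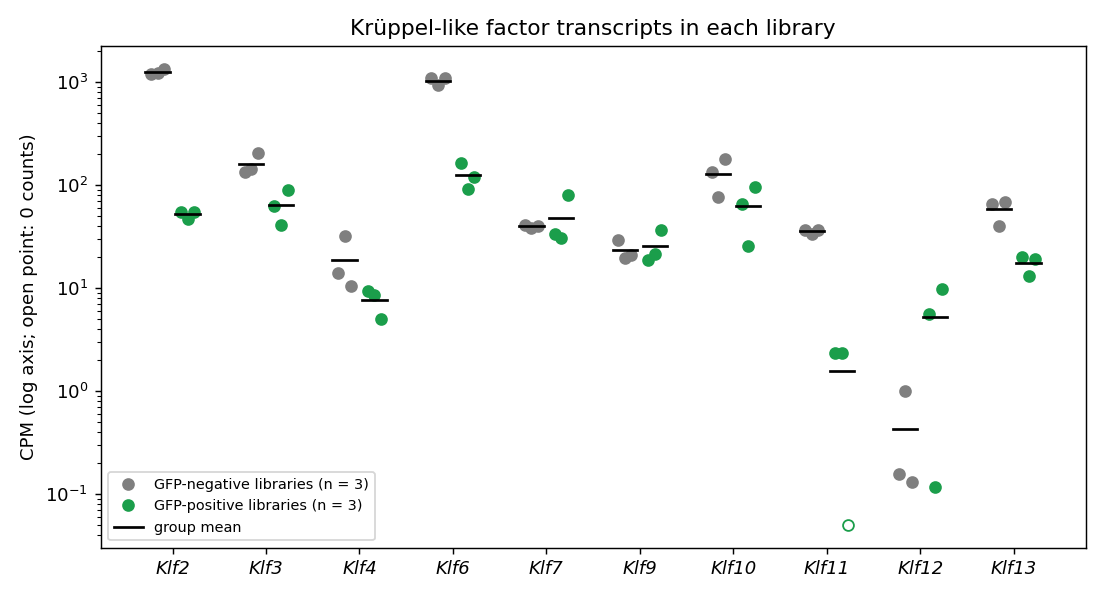
Level of each KLF transcript in every library (CPM, log axis), GFP-negative in grey and GFP-positive in green, with the group mean as a bar and 0 counts as an open point. Klf2 lies between 1199 and 1350 CPM in GFP-negative and between 46.8 and 55.0 CPM in GFP-positive libraries, whereas the points of Klf7, Klf9, Klf10 and Klf12 overlap between the groups.

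Klf2 (ENSMUSG00000055148, chr8:72319033-72321656 on the plus strand of GRCm38) is the flow-induced regulator of endothelial and lymphocyte quiescence. It held 1199, 1230 and 1350 CPM in the GFP-negative libraries and 54.7, 46.8 and 55.0 CPM in the GFP-positive libraries. The lowest GFP-negative library thus lay far above the highest GFP-positive one, and the 3 libraries of each group lay close together. The log2 fold change was −4.59 ± 0.14 (SE, n = 3 each), 24.1-fold lower, and it ranged from −4.64 to −4.52 when any 1 library was left out. By mean CPM, Klf2 ranked 69 of 12122 genes in the GFP-negative and 3472 in the GFP-positive fraction. The gene still held 883, 804 and 993 counts in the GFP-positive libraries, so it was detected in each of them.

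Klf6 (ENSMUSG00000000078, chr13:5861482-5870394, plus strand) is induced early after tissue injury. It held 1091, 930.0 and 1088 CPM in the GFP-negative libraries and 164.9, 91.8 and 121.1 CPM in the GFP-positive libraries. The groups were widely separated, and GFP-positive library 2 was the lowest. Its log2 fold change was −3.04 ± 0.23 (SE, n = 3 each), 8.23-fold lower, with a range of −3.28 to −2.85 when 1 library was left out. Klf7 (ENSMUSG00000025959, chr1:64029447-64122282, minus strand), a close relative of Klf6 that is best known in neurons, held 41.1, 38.5 and 40.2 CPM in the GFP-negative and 33.6, 30.8 and 79.8 CPM in the GFP-positive libraries. Of the GFP-positive libraries, 1 and 2 lay below every GFP-negative library and library 3 above them all, so the groups overlapped. The log2 fold change of 0.27 ± 0.43 (SE) was −0.31 without GFP-positive library 3.

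Klf4 (ENSMUSG00000003032, chr4:55527143-55532466, minus strand), which shares flow-induced targets with Klf2 in endothelium and also takes part in monocyte differentiation, was a low transcript. Its levels were 14.0, 31.7 and 10.4 CPM in the GFP-negative and 9.42, 8.56 and 4.99 CPM in the GFP-positive libraries. The groups did not overlap, but GFP-negative library 3 lay just above GFP-positive library 1, and GFP-negative library 2 stood above the rest. The log2 fold change was −1.29 ± 0.73 (SE, n = 3 each), or −0.68 without GFP-negative library 2 and −1.58 without GFP-negative library 3.

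Of the repressors that bind CtBP, Klf3 stood lower and Klf12 was low and variable. Klf3 (ENSMUSG00000029178, chr5:64803388-64832901, plus strand), which also shapes B cell development, held 135.5, 142.7 and 203.6 CPM in the GFP-negative and 62.8, 41.1 and 89.7 CPM in the GFP-positive libraries. Every GFP-positive library lay below every GFP-negative one, at a log2 fold change of −1.31 ± 0.33 (SE), with a range of −1.63 to −1.07 when 1 library was left out. Klf12 (ENSMUSG00000072294, chr14:99870632-100284679, minus strand) was the KLF of the 10 with the fewest counts, 3, 18 and 3 in the GFP-negative and 91, 2 and 177 in the GFP-positive libraries. These correspond to 0.155, 0.993 and 0.131 CPM against 5.64, 0.117 and 9.81 CPM. GFP-positive libraries 1 and 3 were above and library 2 below the GFP-negative libraries, so the log2 fold change of 3.59 ± 1.80 (SE) rests on those 2 libraries and ranged from 2.73 to 5.11 when 1 library was left out. In GENCODE M21, exons of Klf3 share 404 bases with Gm20033 and those of Klf7 share 3196 bases with Gm26649, both on the other strand. Reads of these pairs cannot be told apart if counting ignored strand, which is not stated.

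Among the repressors that use Sin3, Klf11 was nearly absent from the GFP-positive fraction, Klf13 was lower, and Klf9 and Klf10 overlapped between the groups. Klf11 (ENSMUSG00000020653, chr12:24651274-24662789, plus strand), a factor inducible by TGF-beta, held 36.4, 33.8 and 36.4 CPM in the GFP-negative libraries and 2.35, 2.33 and 0 CPM in the GFP-positive libraries, which is 38, 40 and 0 counts. The GFP-negative values lay within a narrow range and all above the GFP-positive ones. Its log2 fold change was −4.50 ± 1.40 (SE), the widest error among the 7 lower members, or −3.92 without that library and −4.92 without GFP-positive library 1. Klf13 (ENSMUSG00000052040, chr7:63886351-63938915, minus strand), which activates the chemokine gene Ccl5 in T cells, held 65.8, 40.1 and 68.2 CPM against 20.0, 13.0 and 19.3 CPM. The groups did not overlap, at a log2 fold change of −1.74 ± 0.38 (SE) and a range of −1.95 to −1.56 when 1 library was left out.

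Klf10 (ENSMUSG00000037465, chr15:38291463-38300706, minus strand), the other TGF-beta-inducible member, held 133.4, 76.5 and 178.8 CPM in the GFP-negative and 65.1, 25.7 and 95.7 CPM in the GFP-positive libraries. GFP-positive library 3 exceeded GFP-negative library 2, and both groups spread widely. The log2 fold change was −1.06 ± 0.52 (SE), or −0.69 without GFP-positive library 2 and −1.52 without GFP-positive library 3. Klf9 (ENSMUSG00000033863, chr19:23141226-23168134, plus strand), a target of glucocorticoid and thyroid hormone receptors, held 29.2, 19.4 and 20.9 CPM against 18.9, 21.4 and 36.7 CPM. The GFP-negative values lay within the range of the GFP-positive ones, and its log2 fold change was 0.15 ± 0.46 (SE), or −0.20 without GFP-positive library 3.

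Levels of different genes were compared per kilobase of merged exons in GENCODE M21, which may not be the annotation used for counting. In GFP-negative libraries Klf2 led with 682.1 ± 43.0 CPM per kilobase (mean ± SD, n = 3), followed by Klf6 with 236.0 ± 21.01, Klf10 with 31.0 ± 12.3 and Klf3 with 14.3 ± 3.33. Each of these 4 stood apart from the next in all 3 libraries. Klf11, Klf13, Klf4, Klf7 and Klf9 followed between 8.19 and 4.81 CPM per kilobase, and each overlapped its neighbour. Klf12 came last with 0.0610 ± 0.0703. In GFP-positive libraries Klf6 with 28.7 ± 8.39 and Klf2 with 28.3 ± 2.51 CPM per kilobase could not be separated. Klf10 followed with 14.9 ± 8.40, and its highest value of 22.9 lay above the lowest of Klf6 at 20.9. It also overlapped Klf7 (5.91 ± 3.38), which overlapped Klf3 (5.74 ± 2.17), which in turn overlapped Klf9 (5.34 ± 2.00). Klf4 and Klf13 came next with 2.51 ± 0.771 and 2.31 ± 0.510, overlapping each other, and Klf12 (0.743 ± 0.696) and Klf11 (0.360 ± 0.312) were last and overlapped too.

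The KLF transcript pool thus differed in size and in make-up. Summed over all 17 Klf genes it measured 1005 ± 67.9 CPM per kilobase (mean ± SD, n = 3) in GFP-negative libraries and 98.0 ± 22.8 (n = 3) in GFP-positive ones. Klf2 alone made up 67.9 ± 2.03% of it in GFP-negative libraries against 29.6 ± 4.92% in GFP-positive ones. Klf6 made up 23.5 ± 1.58% and 29.4 ± 5.49%. Klf10 had a share of 3.04 ± 1.03% and 14.3 ± 5.72%, although its own level was not higher in the GFP-positive fraction.

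**Figure D2:**
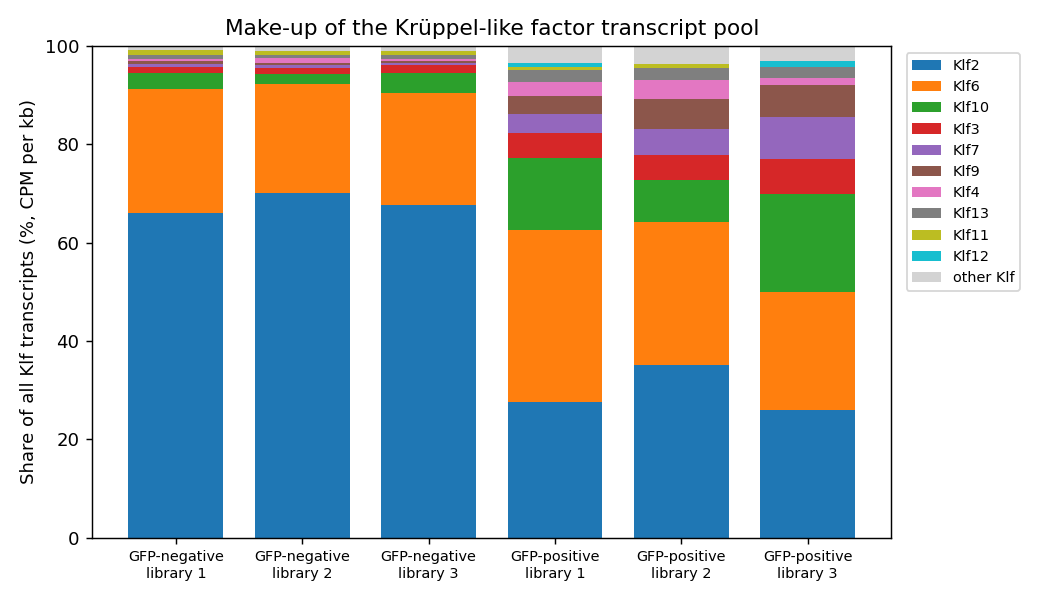
Share of each Klf gene in the sum of all Klf transcripts per library (percent, from CPM per kilobase of exon), with the remaining Klf genes in light grey. Klf2 and Klf6 together fill 90.5% to 92.3% of the GFP-negative bars and 50.01% to 64.2% of the GFP-positive bars.

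Set against endothelial RNA instead of total RNA, all of the fold changes moved down. Klf2 equalled 25.8% to 28.1% of the summed CPM of 15 pan-endothelial markers in GFP-negative and 0.722% to 0.925% in GFP-positive libraries. Ets1, the most abundant of these markers and one that lymphocytes also use, was itself lower in GFP-positive libraries, by −1.56 ± 0.11 on the log2 scale (edgeR adjusted p = 0.000187). With libraries scaled to the other markers, the median log2 fold change of all genes moved from −0.09 to −1.16, and 212 genes were then called higher and 3698 lower, against 927 and 1230. On that scale Klf2 stood at −5.67, Klf6 at −4.10 and Klf11 at −5.53. Klf7 and Klf9 changed sign, to −0.85 and −0.97, both above the median of all genes, and Klf12 stayed positive at 2.51.

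**Figure D3:**
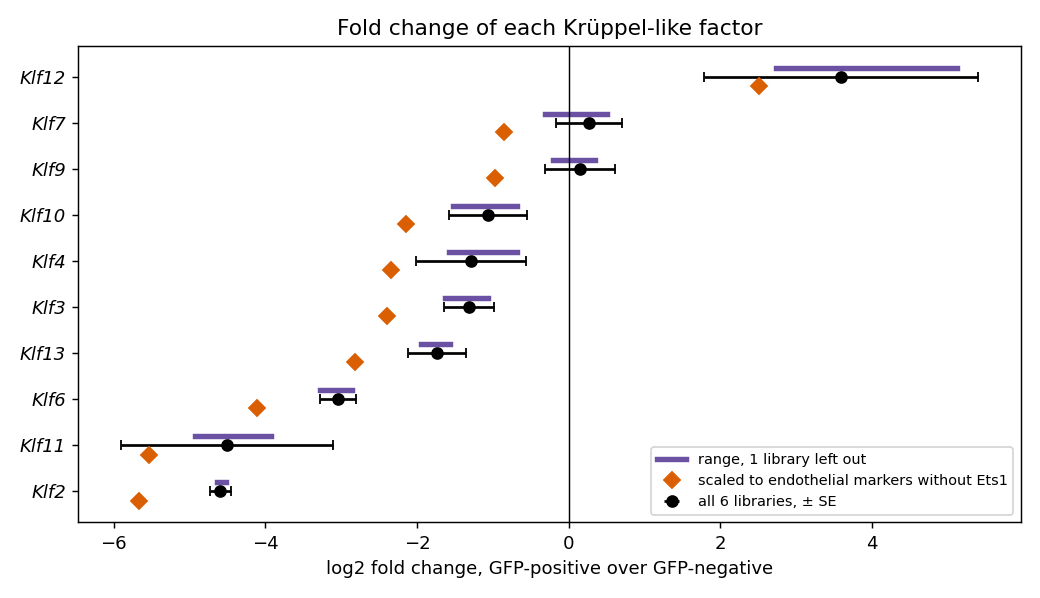
Log2 fold change of each KLF in GFP-positive over GFP-negative libraries: black points with SE for all 6 libraries, violet bars for the range when 1 library is left out, orange diamonds with libraries scaled to pan-endothelial markers other than Ets1. Klf2 has the shortest violet bar, −4.64 to −4.52, and Klf12 the longest, 2.73 to 5.11.

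The other 7 Klf genes were low or absent. Klf5, which drives epithelial and smooth muscle growth, and Klf8, Klf14 and Klf17 held 0 counts in every library. Klf1, the erythroid factor that activates the beta-globin gene, was too low to test. It held 0, 19 and 14 counts in GFP-negative and 0 in each GFP-positive library, so the groups overlapped. Its GFP-negative mean, which rests on libraries 2 and 3, was 9.46 times a floor of 3 counts over the GFP-positive group. Summed CPM of 6 erythroid markers, Klf1 included, lay between 6100 and 8510 in GFP-negative libraries. In GFP-positive libraries it was 1159, 54.7 and 40.0, and the part of erythroid cells in the Klf1 values was not tested. Klf15, a metabolic regulator, held 0, 10.1 and 12.6 CPM against 4.03, 6.41 and 5.76 CPM, with overlap. Klf16 held 24.0, 14.6 and 18.8 CPM against 6.32, 0.991 and 3.60 CPM without overlap, at a log2 fold change of −2.39 ± 0.89 (SE, n = 3 each; edgeR adjusted p = 0.120).

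Sp factors, relatives of the KLFs that bind the same GC boxes, were tested in 5 of 9 cases. Of these 1 was lower, against 10.1% of all genes tested. Sp2 held 58.1, 76.5 and 53.1 CPM against 7.50, 5.24 and 14.2 CPM, and its log2 fold change was −2.80 ± 0.48 (SE, n = 3 each), with an edgeR adjusted p of 0.0101. The call was lost without GFP-negative library 2 (edgeR adjusted p = 0.0503). Sp3, a widely used family member, was at −0.79 ± 0.30 (edgeR adjusted p = 0.128) and Sp1 at −0.71 ± 0.51 (edgeR adjusted p = 0.424). Sp4 held 206, 310 and 774 counts in GFP-negative libraries against 2, 1 and 150 in GFP-positive ones, a fitted log2 change of −2.85 ± 1.75 (edgeR adjusted p = 0.335) that was −7.72 without GFP-positive library 3. Sp7 stood at −1.17 ± 2.16 on few counts, Sp6 held 2 counts in all, and Sp5, Sp8 and Sp9 held 0.

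Known endothelial targets of Klf2 and Klf4 were divided into those they raise and those they hold down, and the lists were not tested against each other. Of 9 genes that Klf2 or Klf4 raises in endothelium, 6 were tested, with a median log2 fold change of 1.14. In GFP-positive libraries 2 were higher, against 7.65% of all genes tested, and 0 lower. Cdh5, the cadherin of endothelial junctions, held 25.1, 36.9 and 59.7 CPM against 139.9, 145.4 and 153.3 CPM, a log2 difference of 1.85 ± 0.34 (SE, n = 3 each; edgeR adjusted p = 0.0127). Lyve1, a hyaluronan receptor of sinusoidal endothelium, held 73.1, 56.9 and 25.5 CPM against 182.9, 185.6 and 189.0 CPM, a log2 difference of 1.84 ± 0.38 (edgeR adjusted p = 0.0188). Both calls were lost without GFP-negative library 2 (edgeR adjusted p = 0.0609 and 0.0702). The most abundant genes that did not pass were Tek, the angiopoietin receptor, at 1.05 ± 0.30 (edgeR adjusted p = 0.0524) and Gja4, a connexin of arterial endothelium, at 1.12 ± 0.64 (edgeR adjusted p = 0.295). Scaled to pan-endothelial markers other than Ets1, 0 of the 6 passed, with a median of 0.09, and Tek stood at −0.0093. Cdh5 and Tek are themselves among those markers, whose median log2 fold change was 1.05 before this scaling. Lyve1 is among the 12 sinusoidal markers, of which 11 were higher, with a median of 1.36. The part of these cell types in the values of the list was not tested.

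Of 9 genes that Klf2 or Klf4 holds down, 4 were tested, and 2 were higher, against 7.65% of all genes tested, and 0 lower. Vcam1, the adhesion molecule that binds leukocytes to inflamed vessels and that Kupffer cells also express, held 38.7, 53.0 and 63.5 CPM against 152.7, 333.2 and 284.4 CPM. Its log2 fold change was 2.31 ± 0.34 (SE; edgeR adjusted p = 0.00569), and the groups were far apart. Kdr, the VEGF receptor that drives endothelial growth, held 514.2, 454.7 and 563.0 CPM against 1036, 1150 and 1619 CPM, a log2 difference of 1.31 ± 0.19 (edgeR adjusted p = 0.00498). Ccl2, a monocyte chemokine, was at 4.77 ± 1.47 (edgeR adjusted p = 0.0691) and Angpt2 at −0.31 ± 1.24 (edgeR adjusted p = 0.909). The median of the 4 was 1.81, against −0.09 for all genes, and pan-endothelial markers had a median of 1.05 in the same libraries, whose part in these values was not tested. Kdr is one of those markers, and with libraries scaled to them without Ets1, 1 of the 4 passed, with a median of 0.72.

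Among genes upstream of Klf2 and Klf4, Mef2c and Mef2d were lower, and no kinase passed the test. The list joins the activating cascade with a complex that restrains it, so its counts and median mix both. All 14 genes were tested, of which 1 was higher and 3 lower, against 7.65% and 10.1% of all genes tested. The remaining 10 did not pass, and the median log2 fold change of the list was −0.09. Mef2c, a transcription factor of muscle, endothelium and B cells, held 610.3, 544.0 and 545.2 CPM against 46.3, 62.7 and 92.1 CPM, a log2 difference of −3.08 ± 0.27 (SE, n = 3 each; edgeR adjusted p = 0.000581). Mef2d was at −2.06 ± 0.48 (edgeR adjusted p = 0.0286), a call lost without any 1 GFP-negative library or without GFP-positive library 2 (edgeR adjusted p up to 0.0969). Mef2a, also in the list, held 92.5, 129.5 and 44.5 CPM against 109.6, 76.1 and 105.6 CPM, with overlap. Its log2 fold change was 0.13 ± 0.39 (edgeR adjusted p = 0.879). MEF2 factors bind the motif marked in the Klf2 window, and their part in the Klf2 values was not tested. Nor was the part of B cells in the Mef2c values. Ccm2, a scaffold of the complex that restrains the kinase MEKK3 in endothelium, was at −1.41 ± 0.19 (edgeR adjusted p = 0.00347). The higher gene was Cdh5, named above. Map3k3, which encodes MEKK3, stood at 0.11 ± 0.21 (edgeR adjusted p = 0.791) and Heg1, the receptor of that complex, at −0.01 ± 0.49 (edgeR adjusted p = 0.992). Without GFP-negative library 2, 0 genes were higher and 2 lower.

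Listed genes of lymphocyte traffic were lower without exception. The list holds homing and egress genes that Klf2 drives in lymphocytes and, beside these targets, Cd69. All 6 were tested and all 6 were lower, against 10.1% of all genes tested, also whichever library was left out. Their median log2 fold change was −6.81, against −0.09 for all genes tested. S1pr1, the receptor that lets lymphocytes leave tissue and that endothelium also uses, held 588.9, 632.8 and 737.8 CPM against 58.1, 51.6 and 70.0 CPM, a log2 difference of −3.45 ± 0.18 (SE, n = 3 each; edgeR adjusted p = 6.7e-05). Ccr7, the chemokine receptor for entry into lymph nodes, was at −6.94 ± 0.25 (edgeR adjusted p = 1.7e-05). Cd69, an activation antigen that counteracts S1pr1, was lower as well, at −7.97 ± 0.88 (edgeR adjusted p = 0.00168). All 9 measured B cell markers were lower too. Of 8 tested T and NK cell markers only 2 passed, both lower, yet the median log2 fold change of the 8 was −4.79. The part of lymphocytes in the values of the traffic genes was not tested.

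**Figure D4:**
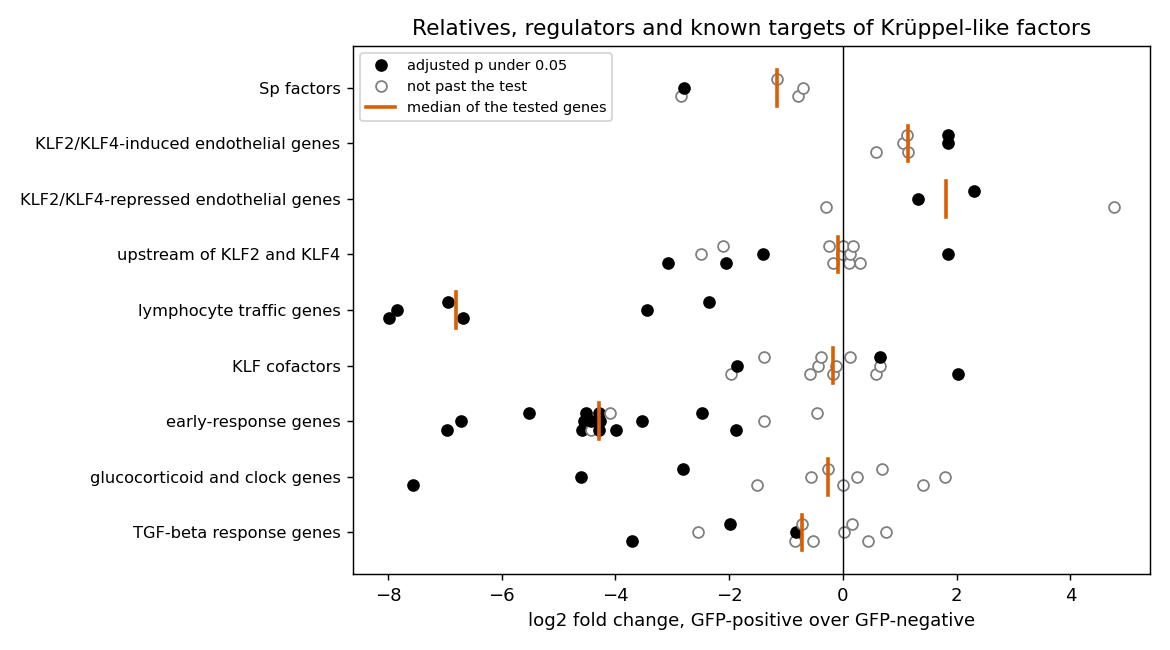
Log2 fold change of each tested gene in lists of KLF relatives, regulators and known targets, filled where edgeR's adjusted p was under 0.05 and open otherwise, with the list median in orange. All 6 lymphocyte traffic genes lie at −2.36 or lower, whereas both endothelial target lists have medians above 0.

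Early-response genes, a class that Klf2, Klf4, Klf6 and Klf10 share in many cell types, were lower in 14 of 18 tested members. Over all genes tested, 10.1% were lower. In the list 0 were higher, with a median log2 fold change of −4.29. Junb, a subunit of AP-1, held 1668, 1675 and 1627 CPM against 41.8, 23.7 and 42.3 CPM, a log2 difference of −5.53 ± 0.26 (SE, n = 3 each; edgeR adjusted p = 5.1e-05). Ier2, an early-response regulator, was at −4.51 ± 0.16 and Jund, another AP-1 subunit, at −4.27 ± 0.15 (edgeR adjusted p = 1.5e-05 for both). Jun was at −3.53 ± 0.18 (edgeR adjusted p = 5.8e-05). The most abundant genes that did not pass were Egr2, a zinc-finger factor, at −4.44 ± 1.83 (edgeR adjusted p = 0.155) and Ier3, a survival gene, at −0.45 ± 1.00 (edgeR adjusted p = 0.826). The summed CPM of the list lay between 9116 and 9657 in GFP-negative and between 424.1 and 596.3 in GFP-positive libraries, and its part in the KLF values was not tested.

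Genes for proteins that KLFs recruit, or that destroy them, passed the test in 3 of 13 cases, against 17.8% of all genes tested. They were higher in 2 cases and lower in 1, and the 13 genes had a median log2 fold change of −0.17. Ctbp2, a co-repressor bound by Klf3 and Klf12, was at 2.02 ± 0.44 (SE, n = 3 each; edgeR adjusted p = 0.0222) and Ctbp1 at −0.58 ± 0.18 (edgeR adjusted p = 0.0669). Hdac1, a histone deacetylase of the Sin3 complex, was at 0.65 ± 0.15 (edgeR adjusted p = 0.0245), and at −0.43 with libraries scaled to pan-endothelial markers other than Ets1. Ep300, an acetyltransferase that activates through several KLFs, was at −1.85 ± 0.52 (edgeR adjusted p = 0.0498). Sin3b was at −0.44 ± 0.21 (edgeR adjusted p = 0.221). Without GFP-negative library 1, 2 or 3 or GFP-positive library 2, 0 of 13 passed the test, and without GFP-positive library 1 or 3 only 1 did.

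Genes that share hormonal and circadian control with Klf9 were lower in 3 of 11 tested cases, against 10.1% of all genes tested. They were higher in 0, with a median log2 fold change of −0.25. Tsc22d3, the glucocorticoid-induced leucine zipper, held 2190, 2127 and 2240 CPM against 347.1, 270.5 and 315.6 CPM, and its log2 fold change was −2.81 ± 0.12 (SE, n = 3 each; edgeR adjusted p = 3.3e-05). Per1, a clock gene, was at −4.60 ± 0.86 (edgeR adjusted p = 0.0136). Per2, its paralogue, held 1 count over the GFP-positive group, and the GFP-negative group was 243.2 times as high (95% interval from counting error 43.7 to 9608). The receptor gene Nr3c1 was at −0.25 ± 0.34 (edgeR adjusted p = 0.696) and the kinase gene Sgk1 at 0.70 ± 0.20 (edgeR adjusted p = 0.0512). Per1 lost its call without GFP-negative library 2 (edgeR adjusted p = 0.0616) and Per2 without any 1 library (up to 0.0951), and without GFP-negative library 2 a single gene of the list passed.

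TGF-beta genes, whose pathway induces Klf10 and Klf11, were lower in 3 of 11 tested cases, against 10.1% of all genes tested. They were higher in 0, with a median log2 fold change of −0.72. Tgif1, a repressor of SMAD proteins, was at −3.71 ± 0.42 (SE, n = 3 each; edgeR adjusted p = 0.00184). Smad7, the inhibitor that the pathway induces to limit itself, was at −1.99 ± 0.34 (edgeR adjusted p = 0.0101), and the ligand gene Tgfb1 was at −0.82 ± 0.18 (edgeR adjusted p = 0.0216). Tgfb1 lost its call without any 1 GFP-negative library or without GFP-positive library 2 (edgeR adjusted p up to 0.0874). The receptor gene Tgfbr2 stood at −0.72 ± 0.21 (edgeR adjusted p = 0.0582) and Smad4 at 0.17 ± 0.17 (edgeR adjusted p = 0.579).

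B cell markers were lower in GFP-positive libraries, and most pan-endothelial, sinusoidal and Kupffer cell markers were higher. Over all genes tested, the shares were 7.65% higher and 10.1% lower. Of 15 pan-endothelial markers, led by Ets1 and Kdr, 9 were higher and 1, Ets1, was lower, and their summed CPM lay between 4482 and 4812 in GFP-negative and between 5915 and 7035 in GFP-positive libraries. Of 12 sinusoidal markers, led by Clec4g and Fcgr2b, 11 were higher, with summed CPM of 4861 to 5631 against 12510 to 13830. All 8 Kupffer cell markers, led by Clec4f and Cd5l, were higher, with a median log2 fold change of 4.04, and so were 9 of 11 macrophage and monocyte markers, with 1 lower and a median of 3.60. The summed CPM of 10 T and NK cell markers lay between 750.6 and 800.3 in GFP-negative and between 16.8 and 37.5 in GFP-positive libraries. Platelet markers were higher in 3 of 5 cases, arterial markers in 1 of 6, hepatocyte markers lower in 4 of 6, and none of 5 erythroid, 3 neutrophil and 4 stellate cell markers passed the test. Pax5 and Cd8a, defining genes of B and cytotoxic T cells, held 0 counts in every GFP-positive library. Endothelial markers were present in both fractions and lymphocyte markers mostly in the GFP-negative one. How much of each KLF transcript came from either cell type was not tested.

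**Figure D5:**
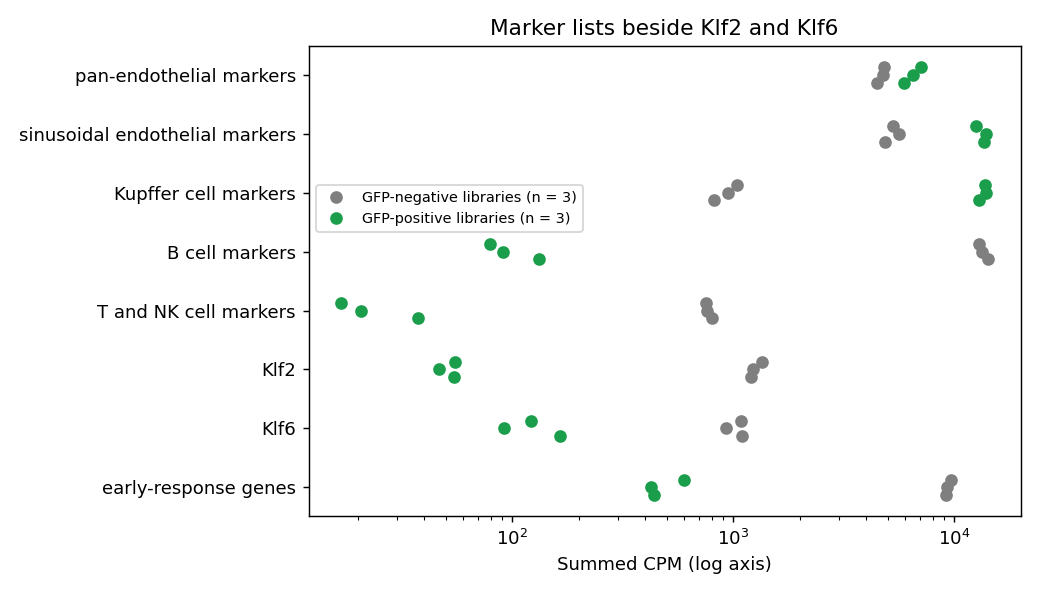
Summed CPM (log axis) of cell type marker lists and of early-response genes in each library, beside Klf2 and Klf6 alone, GFP-negative in grey and GFP-positive in green. Klf2, Klf6, early-response genes and lymphocyte markers lie lower in all GFP-positive libraries, and endothelial and Kupffer cell markers higher.

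Profiles over the 6 libraries were compared by the root mean square difference of log2(CPM + 0.5), each centred on its own mean, as a description with no test. All genes named below share a difference between the groups, which enters the measure. Nearest to Klf2 was Ier2, at a difference of 0.0593. The next, Igkv4-80 and Txk, had 0 CPM in the GFP-positive group, where their likeness depends on the added 0.5. Nearest to Klf6 were Scd1 (0.154), Ifrd1 (0.176) and Tsc22d3 (0.199), nearest to Klf3 were Unc13d (0.129), Gtf2b (0.131) and Ifngr1 (0.156), and nearest to Klf4 were Aven (0.172), Setd1a (0.229) and Cstf3 (0.274).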

How the data were processed

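Poly-A RNA of 6 libraries, 3 GFP-positive and 3 GFP-negative by the label of sorted cells, was counted per gene. The authors deposited 1 table of raw counts with 35275 Ensembl identifiers, of which 34490 were paired with a symbol through a reference table. Per the submitters' processing notes, which give no roles, tools included HTSeq 0.6.1, TopHat2 2.0.12, edgeR, Bowtie2 2.2.3, DESeq 1.18.0 and RSEM. The sources used here do not give build, annotation or strandedness of counting. In R 4.3.3 with edgeR 4.0.16, genes were filtered at a minimum count of 10, scaled by TMM and compared by the robust quasi-likelihood test, and p-values were adjusted after Benjamini and Hochberg across 12122 genes. The SE is the absolute log2 fold change over the square root of F. The script was tested on simulated data. DESeq2 1.42.0, other scalings, no filter and leaving out each library were alternatives.

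The members and lists (10 pathway lists and 12 marker lists) were chosen with earlier results of these data known. Named beside the members and the other Klf and Sp genes were, per pathway list, up to 4 members past the test with the smallest p, any called against the majority, and the 2 most abundant that did not pass, and, per marker list, the 2 most abundant. One gene that this rule names is not reported here. Pax5, Cd8a and Mef2a were singled out after their values were seen. Floors of 3 counts and the counting interval cover counting error only, since no molecular identifiers were counted. Libraries of a group differed beyond sampling noise (chi-square of 73.7 to 125.5 per degree of freedom), so none was taken for a repeat deposit of another; this does not show that they came from separate animals. No paired analysis was possible because the labels carry no shared replicate numbers.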

Additional observations from a re-analysis of the deposited data

How the results depend on the processing

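No paired analysis was possible because the labels give the groups no shared replicate numbers. Leaving out 1 library gave 994 to 1810 genes past the test, against 2157 with all, and within the lists 0 to 2 Sp factors (1 with all), 0 to 2 KLF-induced genes (2), 2 to 4 upstream genes (4), 0 to 1 cofactors (3), 1 to 2 glucocorticoid and clock genes (3), 0 other Klf genes (0), 2 to 3 KLF-repressed genes (2), 6 lymphocyte traffic genes (6), 12 to 15 early-response genes (14) and 2 to 4 TGF-beta genes (3). DESeq2 called 3225 genes, 1 other Klf gene (Klf16) against 0, and 6 cofactors. Scaling to pan-endothelial markers called 2309 genes, 426 higher and 1883 lower, with 2 Sp factors, 1 KLF-induced gene and 6 cofactors. Scaling to these markers other than Ets1, chosen after seeing the data, called 3910 genes, 1 other Klf gene, 3 Sp factors, 0 KLF-induced genes, 1 KLF-repressed gene, 5 cofactors and 6 TGF-beta genes. These 2 scalings moved the median of all genes to −0.55 and −1.16. They turned Klf7 to −0.23 and −0.85, Klf9 to −0.35 and −0.97, Map3k3 to −0.35 and −0.97, and Smad4 to −0.30 and −0.92, and the latter turned Hdac1 to −0.43, Sgk1 to −0.38 and Tek to −0.0093. Leaving out 1 library gave values from −0.31 to 0.51 for Klf7, −0.20 to 0.345 for Klf9, −0.84 to 0.24 for Angpt2, −0.57 to 0.47 for Heg1, −1.07 to 0.10 for Klf15, −0.015 to 0.27 for Map3k3 and −6.83 to 0.22 for Sp7. The other KLF members kept their sign in all 13 alternatives. Of 130 member values 113 moved by less than the spread between replicates, 11 by more, and 6 changed sign. Without the filter 1751 genes passed, with library totals alone 2122 and without immunoglobulin, B, T and NK genes 1954. The cause of these shifts was not tested. Klf12 and, in GFP-positive libraries, Klf11 rest on few counts.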
